A study of Populus tremula x Populus alba with 10 samples.

Results

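In stem nuclei of hybrid poplar, 100 genes were detected far more often in nuclei that also held RNA of the gene PtXaAlbH.16G095400, called the anchor here, than in the other nuclei. They are 100 of the 31823 genes measured in the series. The members were chosen by their own counts in the nuclei. Barcodes with at least 200 genes were kept, and a nucleus was anchor-positive when it held at least 1 unique molecular identifier (UMI, 1 tagged RNA molecule) of the anchor. For each gene, the level in anchor-positive nuclei was divided by the level in the remaining nuclei, each as UMIs scaled to equal sequencing depth (CPM) with 50 CPM added, separately in watered and drought nuclei. The lower of both log2 ratios ranked the genes. A member also needed at least 30 UMIs in the anchor-positive nuclei of the 4 libraries together, and a ratio above the one it had for each of 6 other anchor genes. The anchor itself was left out of the list because its own ratio is set by the definition. The ratios below are therefore a description and carry no test.

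The wood and bark of a stem hold tissues of different work. Xylem conducts water and its cells thicken and lignify their walls, phloem carries sugars, and the cambium between them divides to supply both. Water shortage is known to slow cambial division and growth of stems. Genes that are found together in the same nuclei are often those of 1 cell type or state, but no file here pairs an ID with a gene name, so neither a function nor a cell type is given for these genes, and they are named by ID.

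The plants were wild-type Populus tremula x alba, INRA clone 717 1B4, raised in vitro and potted in peat for 6 weeks, so all groups are 1 clone. Control plants were kept well watered, with soil moisture near field capacity (0.46 m3/m3). Severe drought meant that irrigation stopped until 15% of field capacity remained, and pots were then held at that level by weight for 14 days; wilting began at 0.10 m3/m3. Nuclei came from stem internode 15 (14 and 15 in the series text), with 1 plant per library and 2 libraries per treatment, and bulk RNA from stems with 3 libraries per treatment.

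The nuclei libraries held 16950 barcodes with at least 200 genes, from 3172 to 5697 per library. The drought libraries were shallower, with medians of 430 and 354 UMIs per nucleus against 743 and 513 in controls. Between 11 and 29 of these barcodes were shared by any 2 libraries. Bulk libraries held 47900128 to 57594846 counted reads. Bulk drought library 2 stood apart from the other drought libraries in most members, as given below.

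The anchor was found in 727 nuclei. The share of nuclei with the anchor was 4.97% and 6.49% in control libraries 1 and 2, and 2.24% and 1.87% in drought libraries 1 and 2. Both drought libraries lay below both controls, whose mean was 2.79 times the drought mean. A lower share of nuclei led by the anchor under drought was already known when the anchor was chosen, so this direction is a description. With n = 2 against 2 an exact permutation test (two-sided) cannot go below p = 0.333, which is what it gave. A deeper nucleus has more chance to show the gene, so nuclei were also thinned to 300 UMIs each, which left out 71 and 753 control and 686 and 1227 drought nuclei. The shares were then 2.41% and 4.07% in controls and 1.45% and 1.47% under drought, and the control mean was 2.22 times the drought mean (exact permutation p = 0.333, n = 2 against 2). The exact 95% binomial interval of control library 1 after thinning, 1.97% to 2.92%, overlapped that of drought library 2, 1.04% to 2.02%. Such intervals cover counting error only. With at least 2 anchor UMIs required, the shares were 2.17% and 2.30% against 0.567% and 0.669%.

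An anchor UMI alone did not mark every nucleus equally. In nuclei with 1 anchor UMI the members made up 1.88% and 2.07% of all UMIs in controls and 1.16% and 3.96% under drought. With 2 or more anchor UMIs they made up 11.8% and 8.19% in controls and 8.67% and 12.8% under drought, and without the anchor 0.417% and 0.533% against 0.256% and 0.279%. The member share was thus higher with more anchor UMIs in each of the 4 libraries. Most anchor-positive nuclei held 1 anchor UMI, between 56.5% and 74.7% of them per library. Anchor UMIs also occurred in nuclei that held another anchor of the rule. Between 2.98% (PtXaAlbH.03G005800, 369 nuclei, median 560 UMIs) and 6.35% (PtXaAlbH.07G032900, 709 nuclei, median 617 UMIs) of those nuclei held it, against 4.29% of all nuclei (median 499 UMIs). With at least 2 anchor UMIs the shares were 0.542% to 2.51%, against 1.58% of all nuclei. The shares in nuclei with another anchor thus lay on both sides of that in all nuclei. Treatments were pooled here and depth was not matched. Whether free RNA contributes to these shares was not tested. The members made up 0.358% to 0.772% of UMIs in nuclei with another anchor, against 5.47% in nuclei with this one, a difference that the rule itself selected.

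**Figure D1:**
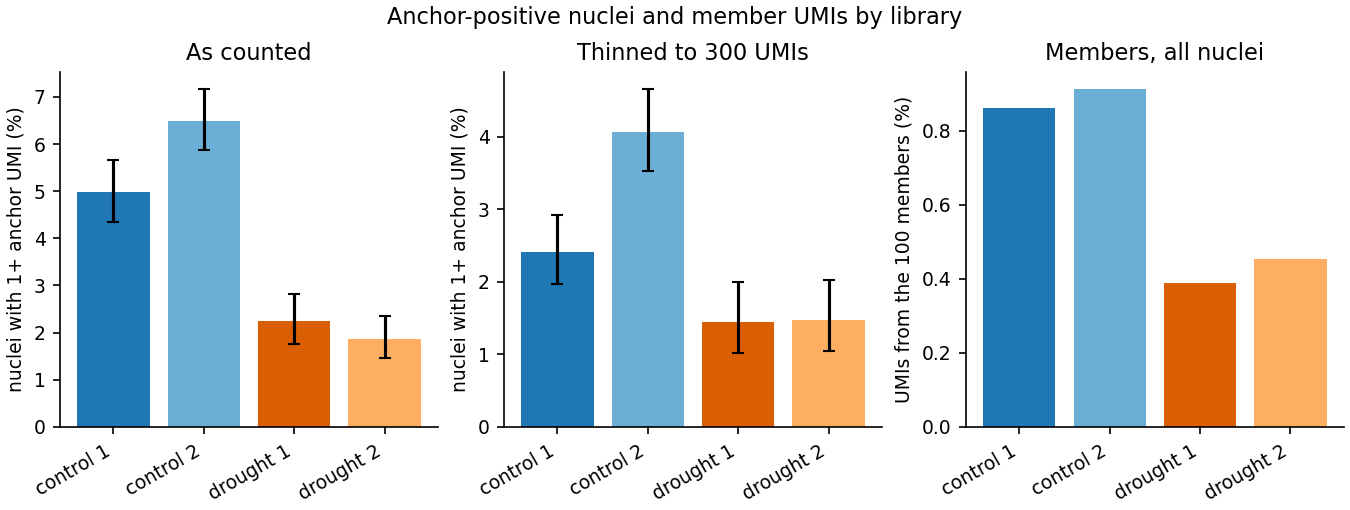
Percent of nuclei with at least 1 anchor UMI in each nuclei library as counted (left) and after thinning to 300 UMIs (middle), with exact 95% binomial intervals as error bars, and percent of all UMIs that came from the 100 members (right). Both drought libraries lie below both controls in each panel, with member shares of 0.390% and 0.453% against 0.862% and 0.913%.

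The rule's log2 ratio ran from 3.91 to 1.90 over the members, with a median of 2.36, and 83 members had a ratio of at least 2. Just inside the list stood PtXaAlbH.13G020100 and PtXaAlbH.15G049700, both at 1.90, and just outside it PtXaAlbH.12G099000 at 1.90 and PtXaAlbH.10G136700 at 1.89, so the list ends in a continuum. The first member, PtXaAlbH.13G043800, had 1690 and 1120 CPM in anchor-positive control nuclei against 36.1 and 57.3 CPM in the other control nuclei. Under drought it had 886 and 3372 CPM against 11.4 and 36.3 CPM. Anchor-positive nuclei were higher in every library, although drought libraries 1 and 2 differed widely from each other. The second, PtXaAlbH.12G038800, had 3156 and 1618 CPM against 103 and 116 CPM in control nuclei. Its drought nuclei had 1385 and 1908 CPM against 31.7 and 44.6 CPM, again higher with the anchor in each library. The third, PtXaAlbH.01G376400, had a higher level than the first and the second in each library, 4594 and 3410 CPM against 231 and 206 CPM in controls and 2351 and 6404 CPM against 114 and 112 CPM under drought. The next 7 members by rank were PtXaAlbH.19G026700 (ratio 3.85), PtXaAlbH.17G009800 (3.33), PtXaAlbH.02G008300 (3.23), PtXaAlbH.01G299100 (3.13), PtXaAlbH.19G031600 (3.09), PtXaAlbH.16G025500 (3.09) and PtXaAlbH.10G161300 (3.07).

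In each library taken alone, the ratio was above 1 for 100 of 100 members. Its median over members was 2.71 and 2.02 in controls and 2.33 and 3.07 under drought. For 80 members the lower ratio, which the rule used, was that of the control nuclei. A typical member was present in 28.9% and 19.6% of anchor-positive control nuclei (medians over members) against 2.15% and 1.85% of the other control nuclei. Under drought these medians were 14.1% and 20% against 0.742% and 0.681%. Anchor-positive nuclei were also deeper, with medians of 1033.5 and 680.5 UMIs against 734 and 505 in controls and 683 and 466 UMIs against 428 and 353 under drought, and this difference adds to such shares but not to CPM.

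**Figure D2:**
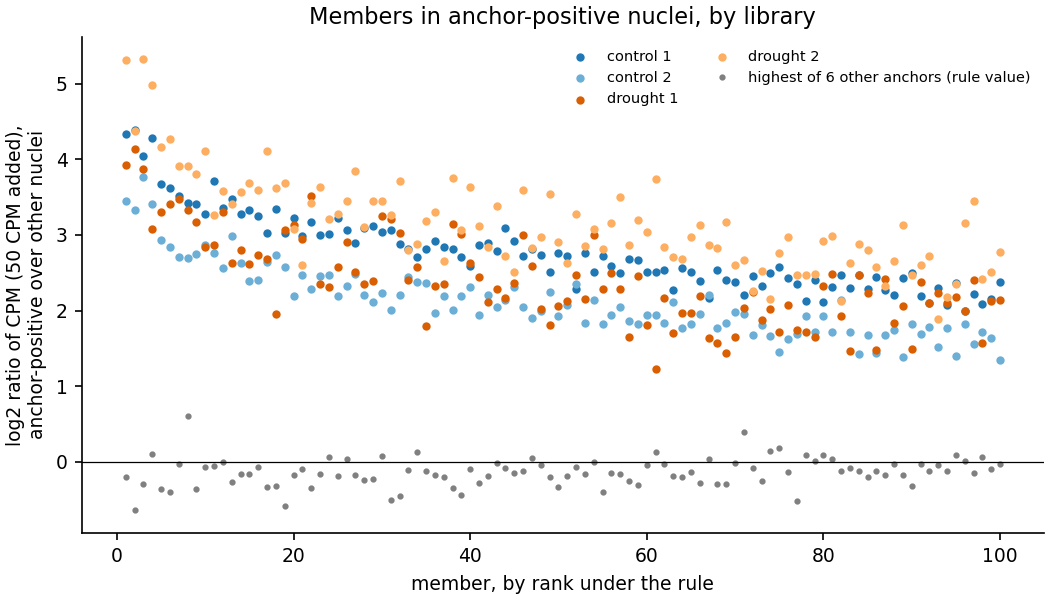
Log2 ratio of CPM in anchor-positive over other nuclei for each member (x axis, rank under the rule) in the 4 nuclei libraries, with the highest of its ratios for the 6 other anchors in grey. The values chose the members; every coloured point lies above 1 and the highest grey point is at 0.61.

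The same measure was then read in a library left out when the genes were ranked. The rule was applied without 1 library, and the 100 genes it gave were read in the library left out. All 100 had a ratio above 1 there in each of the 4 runs. Their median ratio was 2.71 and 2.00 in control libraries 1 and 2, and 2.32 and 3.05 in drought libraries 1 and 2. The genes that met the UMI minimum in these runs, 3772 to 7227 genes, had medians between -0.13 and -0.03 there, and 4.31% to 6.91% of them were above 1. The left-out library differed from the libraries that chose by plant but not by assay. The anchor had been chosen with earlier results of these data known, so the left-out library was not independent of that choice. These values are therefore a description. Depending on the library left out, 89 to 95 of the 100 members were chosen again.

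Members also went together where the anchor was not found. In anchor-negative nuclei, nuclei with at least 1 UMI of a given member were compared with nuclei without it for the share of UMIs from the other 99 members. The median over the 4 libraries of this ratio had a median of 5.83 across members, and all 100 lay above 1.54, the 95th percentile of the 21045 other genes with at least 30 UMIs there, whose median was 0.908. The ratio was above 1 in all 4 libraries for 98 members. The exceptions, named after their values were seen, were PtXaAlbH.19G031700, at 0.872 in drought library 2 on 9 nuclei, and PtXaAlbH.14G140800, at 0.935 in drought library 1 on 3 nuclei. The median over libraries was lowest for PtXaAlbH.05G190800, at 1.66 and 1.47 in controls and 2.10 and 1.95 under drought. This gene was also the most widely present member outside anchor-positive nuclei, with a UMI in 541 and 981 anchor-negative control nuclei. The median was highest for PtXaAlbH.17G068100, at 8.94 and 3.15 in controls and 13.3 and 17.0 under drought, though the last 2 values rest on 8 and 3 nuclei. The nuclei share libraries and the members were picked with these libraries in view, so this is a description.

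Counted per nucleus after thinning to 300 UMIs, 4.57% and 5.48% of control nuclei held 10 or more member UMIs, against 2.05% and 2.71% of drought nuclei. Both drought libraries lay below both controls. This is a range of a continuous score, and a further 2.58% and 3.01% of control and 1.21% and 1.31% of drought nuclei held 6 to 9. Of the nuclei with 10 or more, the anchor had been found in 54.9% and 62.0% in controls and in 37.3% and 54.4% under drought. Part of these member-rich nuclei thus held no anchor UMI. In the same thinned nuclei, 585 held 10 or more member UMIs and 681 had been anchor-positive, and the anchor-positive nuclei were more numerous in each library but drought library 2 (68 against 61). Conversely, the anchor-positive nuclei had medians of 11 and 8 member UMIs in controls, but 1 and 21 under drought, so that drought libraries 1 and 2 lay on opposite sides of the controls.

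**Figure D3:**
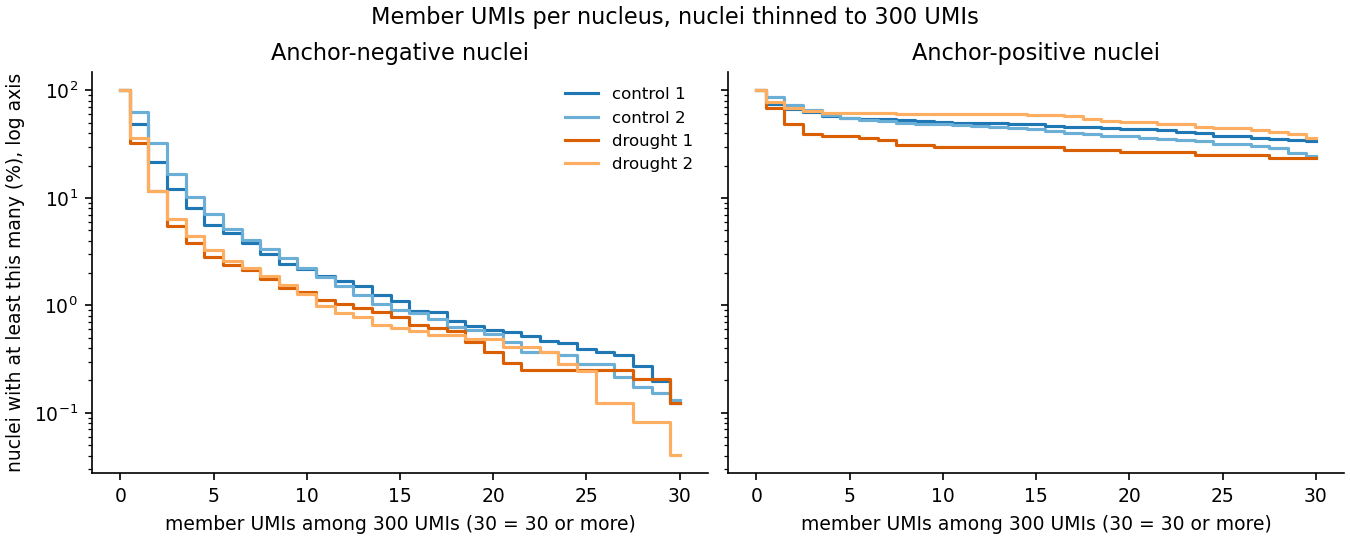
Percent of nuclei (y axis, log scale) with at least the number of member UMIs on the x axis, among 300 UMIs per nucleus, for anchor-negative (left) and anchor-positive (right) nuclei of each library. In anchor-negative nuclei the drought libraries lie below the controls over most of the range, and in anchor-positive nuclei drought library 1 lies lowest and drought library 2 highest over most of it.

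Bulk stem RNA, whose counts the rule did not use, asked whether the members' level in the stem changed under severe drought. Nearly all of them fell. Of the 100 members, all tested, 98 were lower under drought at a false discovery rate (FDR) below 0.05 and 0 were higher (edgeR quasi-likelihood test, Benjamini-Hochberg adjustment over 26448 genes, n = 3 against 3; DESeq2 also called 98 lower and 0 higher). Among all genes tested, 27.1% were lower and 27.1% higher. The median log2 fold change was -1.85 over the members and 0.01 over all genes tested, 94 members were at least 2-fold lower, and 31 at least 4-fold. For 99 members every drought library lay below every control, against 32.8% of all genes tested. The rule's UMI minimum was pooled over treatments. For 26 members it was met in control but not in drought anchor-positive nuclei (17 to 29 UMIs there), and 26 of these were called lower in bulk. Of the 74 that met it in each treatment, 72 were called lower, with a median log2 fold change of -1.85. In bulk RNA, fewer cells of a kind and less RNA per cell cannot be told apart.

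Levels here are CPM scaled by trimmed mean of M-values (TMM). PtXaAlbH.07G051400 had 29.6, 31.8 and 31.5 CPM in controls and 2.86, 8.79 and 1.95 CPM under drought. This was the largest fall among the members called in bulk (edgeR log2 fold change -2.77, SE 0.53, adjusted p 0.00517). PtXaAlbH.03G041700 followed at a far lower level, with 1.05, 1.05 and 1.08 CPM in controls and 0.154, 0.232 and 0.0865 CPM under drought (log2 fold change -2.72, SE 0.40, adjusted p 0.00188 with edgeR). In both genes the groups did not overlap.

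Among the members that led the rule, PtXaAlbH.01G299100 fell from 78.6, 74.6 and 73.0 CPM to 9.91, 27.6 and 11.4 CPM (log2 fold change -2.21, SE 0.39, adjusted p 0.00369 with edgeR). PtXaAlbH.13G043800 fell from 12.5, 15.6 and 13.4 CPM to 3.36, 5.74 and 4.02 CPM (log2 fold change -1.66, SE 0.22, adjusted p 0.00132 with edgeR). The anchor itself fell from 12.6, 12.5 and 11.0 CPM to 4.42, 6.45 and 4.61 CPM (edgeR log2 fold change -1.22, SE 0.18, adjusted p 0.00187). In each of these genes drought library 2 was the highest of the drought libraries yet below every control. PtXaAlbH.12G038800 fell by 2.33 on the log2 scale and PtXaAlbH.01G376400 by 1.80, whereas PtXaAlbH.10G161300 fell least of the first 10 members, by 0.76.

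The 2 members not called in bulk, named after their values were seen, were PtXaAlbH.15G086700 and PtXaAlbH.14G031600. PtXaAlbH.15G086700 had 2.39, 2.25 and 2.35 CPM in controls against 1.71, 1.78 and 1.49 CPM under drought (log2 fold change -0.49, SE 0.18, adjusted p 0.0584 with edgeR), with no overlap of the groups. PtXaAlbH.14G031600 had 66.1, 69.1 and 71.3 CPM against 77.2, 53.5 and 90.3 CPM (log2 fold change 0.10, SE 0.18, adjusted p 0.674 with edgeR), and its drought libraries lay on either side of the controls. Without drought library 2 this gene was called higher, at 0.28 (adjusted p 0.0189 with edgeR).

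Drought library 2 was the highest drought library for 96 members. The typical member stood at 19.9%, 43.4% and 18.9% of its control mean in drought libraries 1, 2 and 3 (medians over members). Without drought library 2 the median log2 fold change of the members was -2.35, and 98 were called lower. The size of the fall did not follow the rank under the rule, with a Spearman correlation of 0.03 across the 100 members, which are not independent and share the same 6 libraries.

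**Figure D4:**
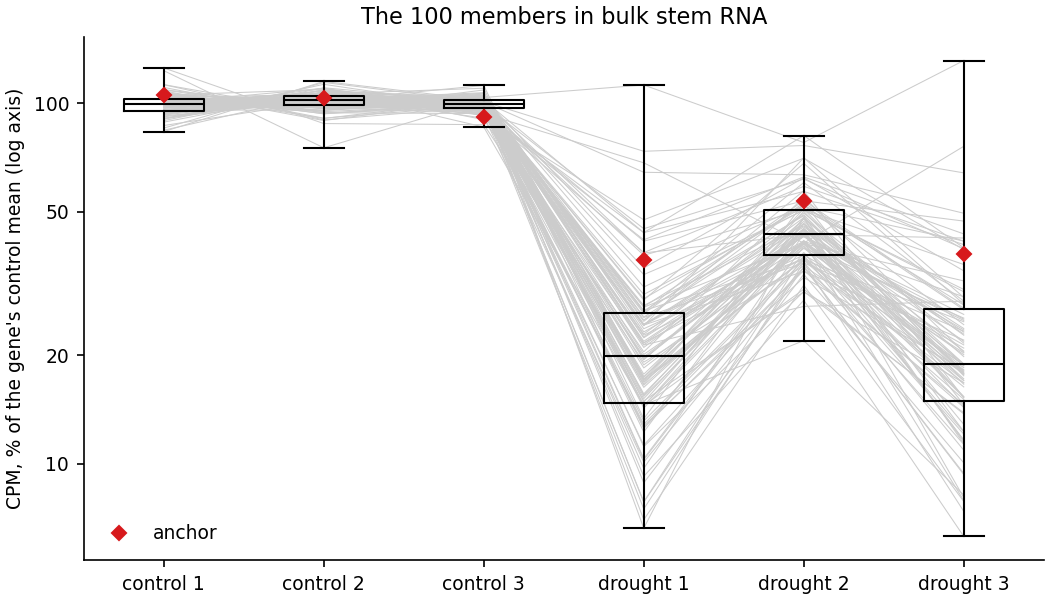
CPM of each member in the 6 bulk libraries as percent of its control mean (log axis). Grey lines are genes, boxes show median and quartiles with whiskers to the extremes, and red diamonds are the anchor; the drought medians are 19.9%, 43.4% and 18.9%.

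Nuclear RNA of the members was lower under drought as well. With UMIs summed over all barcodes of a library, 78 of 100 members were lower under drought and 0 were higher (edgeR quasi-likelihood test, adjusted over 20768 genes, n = 2 against 2; DESeq2 called 68 lower and 0 higher). The shares of all genes tested were 5.21% lower and 3.63% higher. The median log2 fold change was -1.21 over the members and 0.01 over all genes, and for 97 members both drought libraries lay below both controls, against 27.6% of all genes tested. These sums hold the UMIs that chose the members. The UMI minimum was pooled over treatments, and 26 members met it in control but not in drought anchor-positive nuclei (17 to 29 UMIs there), so the count is a description and no independent support. Of these 26, 21 were called lower, and of the 74 that met the minimum in each treatment, 57 were called lower, with a median of -1.13, and 0 higher. Without drought library 1 the median log2 fold change of the members was -1.12, and without drought library 2 it was -1.30. With 1 drought library left, fewer members and fewer of all genes tested passed the FDR in each of these fits. The share of anchor-positive nuclei, itself a description as given above, moved in the same direction.

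Of the members called, the largest falls were those of PtXaAlbH.01G225800 and PtXaAlbH.05G052600. PtXaAlbH.01G225800 had 44.1 and 36.6 CPM in control nuclei and 6.15 and 15.6 CPM in drought nuclei (log2 fold change -1.89, SE 0.37, adjusted p 0.0161 with edgeR). PtXaAlbH.05G052600 had 36.3 and 35.2 CPM against 10.3 and 9.05 CPM (log2 fold change -1.88, SE 0.29, adjusted p 0.00684 with edgeR). Both were also called lower in bulk, at log2 fold changes of -1.04 and -2.05. Each of the first 10 members had a negative log2 fold change in nuclei, and 9 of them were called lower. The calls of PtXaAlbH.02G008300, PtXaAlbH.16G025500 and PtXaAlbH.10G161300 were lost without drought library 1, where 1 drought library is left. The first, PtXaAlbH.13G043800, had 158 and 162 CPM against 42.6 and 106 CPM and missed the threshold (log2 fold change -1.11, SE 0.33, adjusted p 0.0667 with edgeR), and its drought libraries differed widely. Without drought library 2 it was called lower, at -1.91 (adjusted p 0.00706 with edgeR). PtXaAlbH.14G031600, not called in bulk, was not called here either, at -0.23 (SE 0.19, adjusted p 0.498 with edgeR). The anchor fell from 169 and 219 CPM to 84.1 and 83.5 CPM (edgeR log2 fold change -1.21, SE 0.20). A lower share of nuclei led by the anchor under drought was known when it was chosen, so its fall here is a description.

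Set beside each other, 78 members were called lower in both assays and 20 in bulk alone, while 0 were called in nuclei alone and 2 in neither. The log2 fold change was lower in bulk than in nuclei for 90 members. Across the 100 members the fold changes of both assays, from separate libraries, had a Spearman correlation of 0.31. The difference of the drought effects was tested in 1 model of all 10 libraries. On counts simulated with 1 spread for all genes, this test recovered 2 of 100 2-fold and 51 of 100 4-fold changes. A lack of calls thus says little about 2-fold differences. The difference was called for 0 members with edgeR (lowest adjusted p 0.0666, 12 at an unadjusted p below 0.05). Of 27746 genes, 2.34% were called more positive in nuclei and 4.87% more negative. These were 650 and 1351 genes; without scaling beyond library size they were 1474 and 819. DESeq2 called 5 members. Of the 30213 genes it tested, 1716 were called more positive in nuclei and 2599 more negative, so the members do not stand out there. The 5 members, known only after the fit, were PtXaAlbH.02G193500, PtXaAlbH.05G111800, PtXaAlbH.10G156000 and PtXaAlbH.15G103900, more positive in nuclei, and PtXaAlbH.05G190800, more negative. Bulk drought library 2 decided this count. With it 0 members were called, and without it edgeR called 72 members, 70 of them more positive in nuclei. Calls rose among all genes too: of 27662 tested without it, 2879 were more positive in nuclei and 3429 more negative. The median difference of the members was then 1.07 on the log2 scale instead of 0.56.

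Inside anchor-positive nuclei no change of a member was called. UMIs were summed over the anchor-positive nuclei of each library, 216 and 370 in controls and 71 and 70 under drought, and 0 of 100 members were called (edgeR quasi-likelihood test, adjusted over 5958 genes, n = 2 against 2), with 0 at an unadjusted p below 0.05 and 0 by DESeq2. Among all genes tested there, 0.386% were lower and 0.235% higher, 23 and 14 genes; with relative log expression size factors these were 2 and 4, and without scaling 12 and 10. The median log2 fold change was -0.05 over the members and -0.05 over all genes, and the values ran from -0.79 for PtXaAlbH.03G041700 to 0.72 for PtXaAlbH.07G114400. PtXaAlbH.03G041700 had 1528 and 844 CPM in controls and 577 and 820 CPM under drought. PtXaAlbH.01G299100 had 1700 and 1053 CPM against 999 and 1604 CPM, and its groups overlapped. The rule used the levels in these nuclei in both treatments, so the lack of calls is a description. It cannot be set against the falls in bulk.

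This comparison is imprecise. The drought nuclei gave medians of 18 and 22 UMIs per member, against 144 and 107 in controls, and the median SE was 0.47 on the log2 scale. The drought libraries also went apart, with medians of 68.8% and 129% of the control mean over members. Without drought library 2 the median log2 fold change was -0.57 and 1 member, PtXaAlbH.05G190800, was called lower (log2 fold change -2.42, adjusted p 0.000266 with edgeR); without drought library 1 the median was 0.28. The rule asked for a high ratio in both treatments, which limits how far a member could fall here. Whether the drought effect differed between anchor-positive and other nuclei was not tested, because that ratio chose the members.

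**Figure D5:**
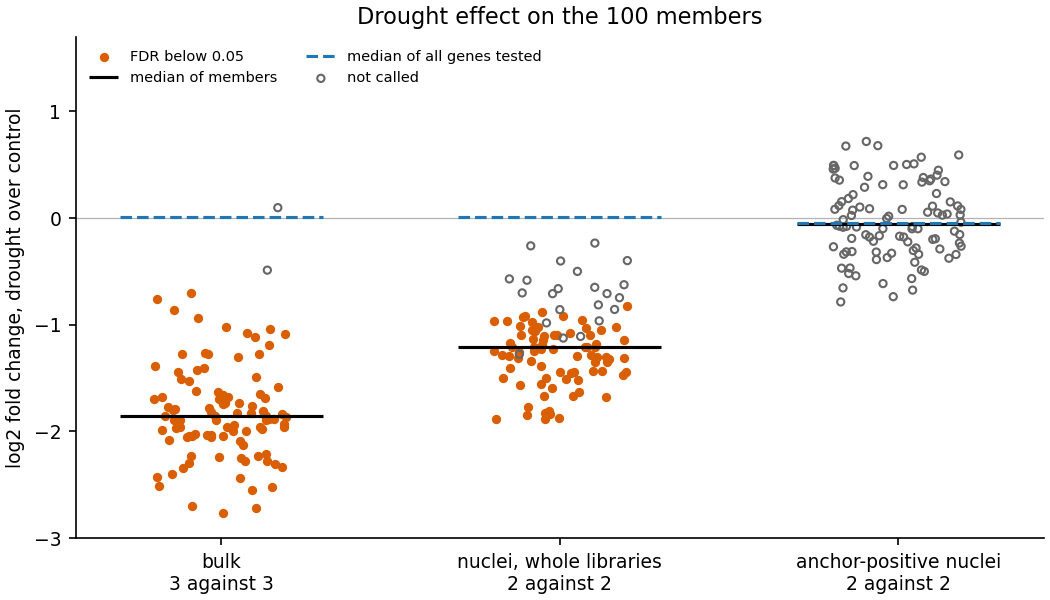
Log2 fold change of drought over control for each of the 100 members in bulk RNA, in whole nuclei libraries and in anchor-positive nuclei. Filled points passed an FDR of 0.05 and open points did not. The medians of the members (black) are -1.85, -1.21 and -0.05, and those of all genes tested (blue dashes) lie near 0. The rule used the levels in anchor-positive nuclei in both treatments, which limits how far a member could fall there.

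The member IDs carry 19 different numbers before the letter G, from 1 member with 11, 12 or 16 to 13 members with 1, and members occur under each of the 19. In the order of the IDs, 5 members stood directly beside another member. PtXaAlbH.14G021300 and PtXaAlbH.14G021400 were 1 such pair, and PtXaAlbH.19G031600, PtXaAlbH.19G031700 and PtXaAlbH.19G031800 formed a run of 3. All 5 were called lower in bulk, with log2 fold changes of -1.51 and -2.25 in the pair and -1.78, -1.85 and -2.55 in the run. They were also called lower in nuclei, from -0.96 for PtXaAlbH.14G021300 to -1.31 for PtXaAlbH.19G031700. If neighbours are near-identical copies, the division of reads among them is uncertain, since the counting rules are not known here.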

How the data were processed

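Single-nucleus RNA (2 control and 2 drought libraries, 1 plant each) and bulk stem RNA (3 and 3) were grouped by labelled treatment. Per the labels' protocols, 80000 nuclei were sorted and loaded on a Singleron GEXSCOPE chip for a target of 10000, and bulk libraries used a stranded mRNA kit. The deposited files hold raw UMI counts per gene and barcode, and raw read counts per gene, per the file headers and the values. HISAT2 is named in the submitters' processing notes; the sources used here do not give its role, the counter, the build, strand use or how barcodes were selected.

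The 25 features that name no gene (0.0574% to 0.478% of UMIs) and 3456 of 20406 barcodes with under 200 genes were left out of the rule; whole-library sums used all barcodes. The UMI minimum was read as a sum over all 4 libraries. Doublets were not removed. Thinning drew UMIs without replacement.

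Tests used edgeR 4.0.16 in R 4.3.3 (TMM, filterByExpr, quasi-likelihood F, FDR 0.05, adjusted over all genes tested; SE is the log2 fold change over the square root of F), tested on simulated data; DESeq2 1.42.0 was an alternative. Libraries are the replicates, never nuclei; the labels do not say that numbered bulk replicates of both treatments belong together. No replicate pair agreed within sampling noise (chi-square per degree of freedom 4.30 or more).

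Named genes are the anchor, the 10 highest ratios, those beside the list's end, and the 2 largest called changes each way per comparison; others are marked. The anchor, members and tests were chosen with earlier results of these data known, among them a lower share of nuclei led by the anchor under drought.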

Additional observations from a re-analysis of the deposited data

How the results depend on the processing

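Of the 100 members, 74 to 98 stayed in the list under each other setting of the rule tried, fewest with 30 UMIs asked of each treatment. In bulk, 90 to 99 members were called under each alternative, at most 1 of them higher. Without scaling beyond library size the median of all genes moved by over 0.1 to -0.12 and that of the members to -1.97. PtXaAlbH.14G031600 then changed sign, to -0.0298, and also without bulk drought replicate 3, to -0.0735, and was called higher without bulk drought replicate 2, at 0.280; the cause was not tested. PtXaAlbH.13G020100, PtXaAlbH.17G009800 and PtXaAlbH.19G031600 lost their bulk call when 1 of several libraries was left out (edgeR adjusted p up to 0.0682). In whole nuclei libraries, leaving out 1 library gave 47 to 73 calls, and the other alternatives 66 to 86, each with 0 higher. In anchor-positive nuclei, leaving out 1 library gave 0 to 1, and 0 under the others (edgeR, 0 to 5 at an unadjusted p below 0.05; DESeq2 0). For the difference between assays the median of all genes moved from -0.09 to 0.15 without scaling, and that of the members from 0.56 to 0.80. It was called for 1 member (PtXaAlbH.02G193500) without scaling, 5 by DESeq2, and 0 to 72 with 1 library left out; the cause was not tested.

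Same-numbered bulk libraries did not deviate together (correlations -0.01 to 0.03), which does not settle whether the numbers pair them. With the replicate block the calls were 98 in bulk, 79 in whole nuclei libraries, 0 in anchor-positive nuclei (edgeR, 0 at an unadjusted p below 0.05) and 0 for the difference (16 at an unadjusted p below 0.05). In nuclei the correlation was -0.10 for same-numbered libraries and 0.10 for the others. With 2 libraries per treatment these values are always opposite, so they cannot decide the pairing. A crossed replicate block, added after seeing the data, gave 85 calls in whole nuclei libraries and 0 in anchor-positive nuclei. The share of anchor-positive nuclei was lower under drought in each setting, by 1.61 to 4.44 percentage points (-1.61 to -4.44). Depth limits single members in anchor-positive drought nuclei, with as few as 6 UMIs.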

Other observations

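The same rule with the 6 other anchors gave 100 genes each, none of them a member here. Their bulk and nuclei calls stand beside those of the members, in the same libraries, and differences between lists were not tested. With PtXaAlbH.10G108800, 84 genes were lower and 4 higher in bulk (median log2 fold change -1.06), and 84 were lower and 0 higher in whole nuclei libraries (median -1.12). With PtXaAlbH.03G169600, 60 were higher and 14 lower in bulk (median 0.62), and 35 were higher and 1 lower in nuclei (median 0.70). The list of PtXaAlbH.07G032900 had 46 higher and 10 lower in bulk (median 0.56) but 0 higher and 11 lower in nuclei (median -0.60), and the difference between assays was called for 33 of its genes, all more negative in nuclei (edgeR). With PtXaAlbH.03G005800, 38 were higher and 22 lower in bulk (median 0.12), and 10 were higher and 9 lower in nuclei (median 0.13). With PtXaAlbH.12G066100, 12 were higher and 43 lower in bulk (median -0.30), and 6 were higher and 3 lower in nuclei (median 0.16). With PtXaAlbH.06G122800, 31 were higher and 8 lower in bulk (median 0.27), and 26 were higher and 1 lower in nuclei (median 0.61).

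PtXaAlbH.19G031600 had the highest ratio of any member for another anchor, 0.61 for PtXaAlbH.12G066100, against 3.09 for its own; the rule asked that the second be higher.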
